A study of Mus musculus with 12 samples.

Results

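The DNA methylation writers and erasers were followed in mouse embryonic stem cells (ESCs) that lost their endogenous Ring1B, a Polycomb ubiquitin ligase, in most lines with an introduced Ring1B present. They comprised 8 genes, chosen by name: *Dnmt1*, *Dnmt3a*, *Dnmt3b*, *Dnmt3l*, *Uhrf1*, *Tet1*, *Tet2* and *Tet3*. They were read by 20 of the 34945 probe sets that carried 1 gene symbol on a whole-genome Affymetrix array. All 20 passed a filter on low signals, and after probe sets were averaged per gene they made up 8 of 16432 genes tested.

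Every array came from ESCs of a 129/B6 hybrid background and the genotype Ring1A-/-;Ring1B fl/fl;Rosa26::CreERT2, so that Ring1A was absent throughout and 4-hydroxytamoxifen (OHT) let Cre remove the endogenous *Ring1B*. Before OHT the cells therefore still had Ring1B, and untreated cells were not wild type. The cells were stably transfected with an empty vector (mock, 1 line), with wild-type Ring1B (WT, lines #1 and #3), or with Ring1B carrying the substitution I53S (lines #1 and #4) or I53A (line #1). Both substitutions lie on the surface that binds the E2 enzyme and were used as catalytically inactive forms. These 3 lines form the mutant class. The constructs were Flag-tagged cDNAs driven by the CAG promoter and kept under puromycin. OHT was given at 800 nM for 24 hours. Total RNA of each of the 6 lines was read on 1 array before OHT and 1 array on day 2, which gave 12 arrays with no repeat of a line at either time. The growth protocol allows irradiated fibroblast feeders or gelatin and does not say which was used for an array.

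DNA methylation at CpG dinucleotides is set by *Dnmt3a* and *Dnmt3b*, the de novo methyltransferases, with *Dnmt3l*, a related protein without catalytic activity that stimulates them. It is copied after replication by *Dnmt1*, which *Uhrf1* brings to hemimethylated DNA. *Tet1*, *Tet2* and *Tet3* encode dioxygenases that oxidise 5-methylcytosine, a step in demethylation. ESCs transcribe *Tet1* and *Tet2* well, whereas *Tet3* is best known from the oocyte, the zygote and differentiated cells.

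Signals are given as log2 of the array signal after the 12 arrays had been brought to the same distribution by quantile normalization, and a change is the log2 signal on day 2 of OHT minus that before OHT in the same line. As deposited, the median log2 signal of an array lay between 4.66 and 5.67, and the correlation between any pair of normalized arrays lay between 0.966 and 0.989. The ESC transcripts *Pou5f1* (12.34 to 12.87), *Nanog* (12.36 to 12.72) and *Sox2* (11.51 to 12.50) were high on every array. The gene encoding Ring1B, *Rnf2*, read 7.06 to 7.58, with a change of -0.26 in the mock line. No source used here places its probes relative to the floxed part, so this signal does not check the deletion. That of *Ring1* (Ring1A), 5.24 to 6.49, does not check the knockout.

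After OHT the transcripts of *Dnmt3a* and *Tet2* fell in the mutant lines, by 0.58 and 0.53 on the log2 scale, to 0.667 and 0.693 of the level before OHT. *Tet1* and *Uhrf1* gave -0.40 and -0.37 and did not pass the test. *Dnmt3b*, *Dnmt3l*, *Dnmt1* and *Tet3* did not pass it either. A gene was called at a Benjamini-Hochberg adjusted p under 0.05 over all genes in a limma fit with the line as a block. By this rule 2 of the 8 genes were lower and 0 were higher in the mutant lines, where 1.55% of all genes tested were called lower, 4.91% higher and 6.46% in either direction. Across the 2 WT lines 0 of the 8 were called, as were 0% of all genes, and 1 (*Tet3*) was at an unadjusted p under 0.05, beside 7.61% of all genes. In the mock line 0 of the 8 were called, against 1.67% of all genes (0.383% lower and 1.29% higher), and 3 (*Dnmt3a*, *Tet2* and *Tet3*) were at an unadjusted p under 0.05, beside 19.9%. The scaling mattered for these counts: quantile-normalized, 807 genes rose and 255 fell in the mutant class and 212 and 63 in the mock line, whereas with the values as deposited they were 540 and 571, and 175 and 747. With the deposited values 4 of the 8 were lower in the mutant lines (*Dnmt3a*, *Tet2*, *Tet1* and *Uhrf1*) and 2 in the mock line (*Dnmt3a* and *Tet2*).

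**Figure D1:**
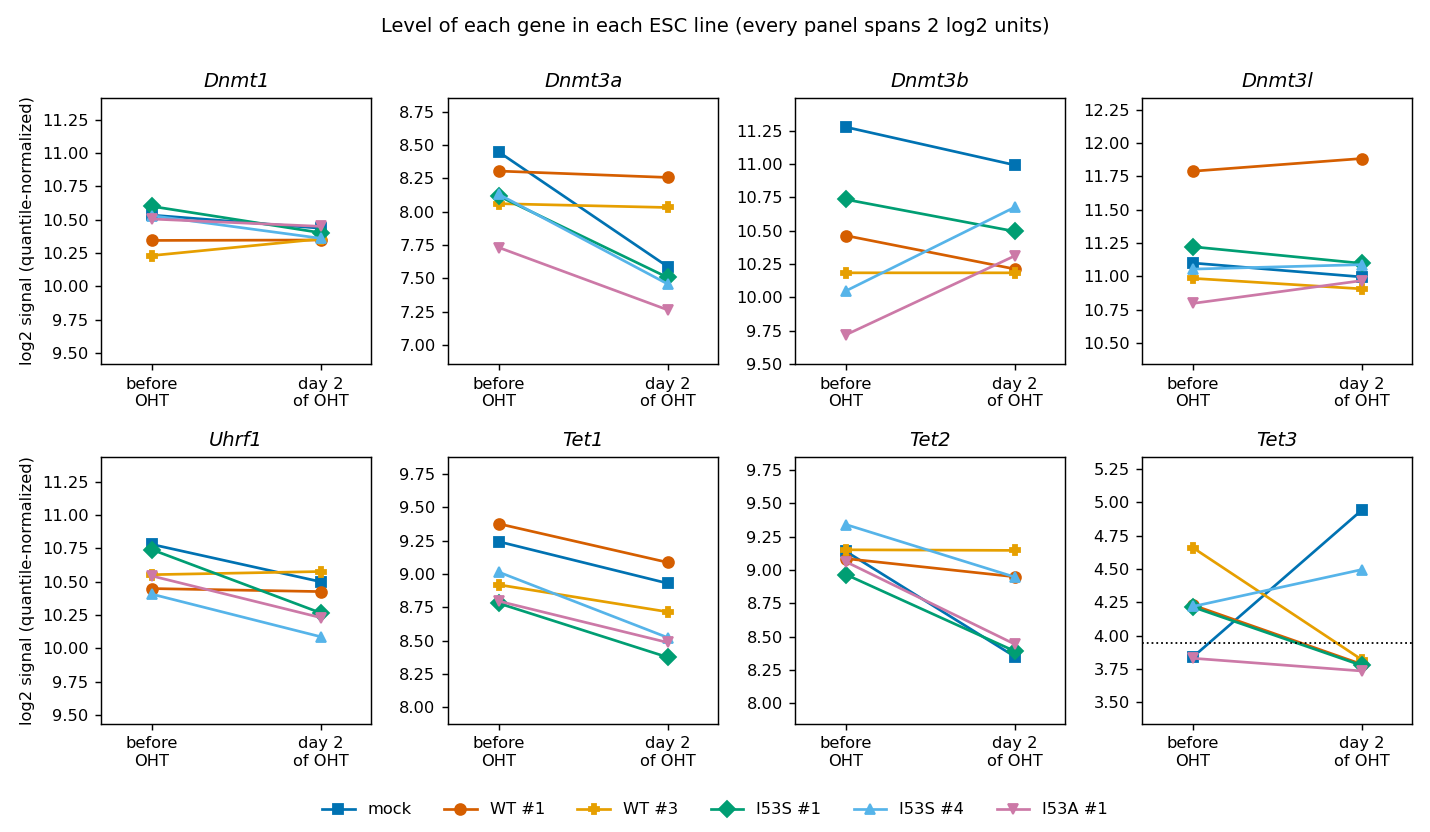
Log2 signal (vertical axis, quantile-normalized) of each of the 8 genes before OHT and on day 2 of OHT (horizontal axis), with 1 point per array and 1 line per ESC line. Every panel spans 2 log2 units, and the dotted line in the *Tet3* panel is the filter on low signals at 3.94. *Dnmt3a* and *Tet2* run downwards in the mock line and in the 3 mutant lines and stay nearly level in the WT lines.

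*Dnmt3a* read 8.45 before and 7.59 after OHT in mock cells. In the WT lines it read 8.30 and 8.06 before OHT, and 8.26 and 8.03 after it. In the mutant lines it read 8.12 (I53S #1), 8.13 (I53S #4) and 7.73 (I53A #1) before OHT, and 7.51, 7.46 and 7.26 after it. The mock line thus went from the highest signal of the 6 lines to one below both WT lines, and the mutant lines ended below every array of the WT lines. The mock line gave a change of -0.86, the WT lines -0.05 and -0.03, and the mutant lines -0.61, -0.67 and -0.47. The mean of the mutant lines was -0.58 ± 0.09 (SE, n = 3 lines), with an adjusted p of 0.0222 (limma). For mock the fit gave -0.86 ± 0.15 (SE, with the spread taken from the other lines) and an adjusted p of 0.0644. In the WT lines it gave -0.04 ± 0.11 (SE, n = 2 lines). Each SE here and below comes from the fit. Its spread was pooled over the WT and mutant lines and drawn toward that of all genes, so it is not the spread of the n lines alone. The difference between the mutant and the WT lines was -0.55, with a 95% interval of -0.89 to -0.20 and an adjusted p of 0.226, so a difference between the classes was not shown over all genes. The call in the mutant lines was lost whenever 1 mutant line was left out, at adjusted p of 0.0803 (without I53A #1), 0.113 (without I53S #1) and 0.114 (without I53S #4), and when the line was not a block (0.0762).

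*Tet2* read 9.14 before and 8.35 after OHT in mock cells. In the WT lines it read 9.09 and 9.15 before OHT, and 8.95 and 9.15 after it. In the mutant lines it read 8.97 (I53S #1), 9.34 (I53S #4) and 9.06 (I53A #1) before OHT, and 8.39, 8.95 and 8.44 after it. Before OHT the mutant lines lay on both sides of the WT lines, and after it 2 of them lay below both WT lines while I53S #4 was level with WT #1. The mock line gave a change of -0.79, the WT lines -0.14 and -0.0044, and the mutant lines -0.57, -0.39 and -0.62. The mean of the mutant lines was -0.53 ± 0.09 (SE, n = 3 lines), with an adjusted p of 0.0328 (limma). For mock the adjusted p was 0.082. The mutant lines minus the WT lines gave -0.46, with a 95% interval of -0.82 to -0.09 and an adjusted p of 0.305. This call, too, was lost without any 1 mutant line (adjusted p of 0.0968 to 0.146), without either WT line (0.0613), without the block (0.154), with arrays centred on their medians in place of quantile normalization (0.0608) and with the brightest probe set in place of the average (0.0504).

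*Tet1*, the other TET gene that is well transcribed in ESCs, was lower after OHT in all 6 lines. It read 9.24 before and 8.93 after OHT in the mock line, 9.38 and 8.92 before and 9.09 and 8.72 after in the WT lines, and 8.78, 9.01 and 8.80 before and 8.38, 8.52 and 8.49 after in the mutant lines. The mock line gave a change of -0.31, the WT lines -0.29 and -0.20, and the mutant lines -0.40, -0.49 and -0.31. Unlike at *Dnmt3a* and *Tet2*, the value of WT #1 was close to those of the mock line and of I53A #1. The mean of the mutant lines was -0.40 ± 0.09 (SE, n = 3 lines; adjusted p = 0.0582), and the mutant minus the WT lines gave -0.16, with a 95% interval of -0.50 to 0.19 (adjusted p = 0.706).

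*Uhrf1* read 10.78 before and 10.50 after OHT in the mock line, 10.45 and 10.55 before and 10.43 and 10.58 after in the WT lines, and 10.74, 10.41 and 10.54 before and 10.27, 10.09 and 10.23 after in the mutant lines. After OHT the 3 mutant lines lay below both WT lines and below the mock line, whereas before OHT the classes overlapped. The mean change in the mutant lines was -0.37 ± 0.09 (SE, n = 3 lines; adjusted p = 0.0695). The mock line gave -0.28 and the WT lines -0.02 and 0.02. *Dnmt1*, the maintenance methyltransferase that works with *Uhrf1*, stayed between 10.23 and 10.60 on all 12 arrays, where the mutant lines gave -0.20, -0.17 and -0.06, the mock line -0.10 and the WT lines 0.0031 and 0.12. Its mean in the mutant lines was -0.14, with a 95% interval of -0.36 to 0.08 (adjusted p = 0.395).

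At *Dnmt3b* the mutant lines disagreed. It read 10.73 before and 10.50 after OHT in I53S #1, but 10.05 and 10.68 in I53S #4, and 9.72 and 10.31 in I53A #1. The 2 lines of the same substitution I53S thus gave changes of opposite sign, -0.24 and 0.63, and I53A #1 gave 0.59. Mock cells read 11.28 before and 10.99 after OHT, the highest signals of the 6 lines at both times. The WT lines read 10.46 and 10.18 before, and 10.21 and 10.18 after. The 2 lines with a change above 0 were those with the lowest signals before OHT. The mean of the mutant lines was 0.33, with a 95% interval of -0.14 to 0.80 (adjusted p = 0.363), and the mutant minus the WT lines gave 0.45, with an interval of -0.29 to 1.19.

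The changes of *Dnmt3l* lay between -0.12 and 0.17 in the 6 lines, with a mean in the mutant lines of 0.03 (95% interval -0.22 to 0.27). Its signals differed more between lines than between the 2 times. WT #1 read 11.79 and 11.88, whereas the other 5 lines lay between 10.80 and 11.22 at both times. WT #3, at 10.98 before OHT, lay within the range of the mutant lines.

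*Tet3* was read by 1 probe set whose signal lay near the filter of 3.94, the 30th percentile of all values, and was above it on 6 of the 12 arrays. It read 3.84 before and 4.94 after OHT in the mock line, 4.23 and 4.66 before and 3.78 and 3.82 after in the WT lines, and 4.21, 4.22 and 3.83 before and 3.78, 4.50 and 3.73 after in the mutant lines. The highest value was that of the mock line after OHT, and the mutant lines gave values on both sides of 0. None of the fits called it: the mock line gave 1.10 ± 0.28 (SE; adjusted p = 0.118), the WT lines -0.64 (adjusted p = 0.563) and the mutant lines -0.09 (adjusted p = 0.795).

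**Figure D2:**
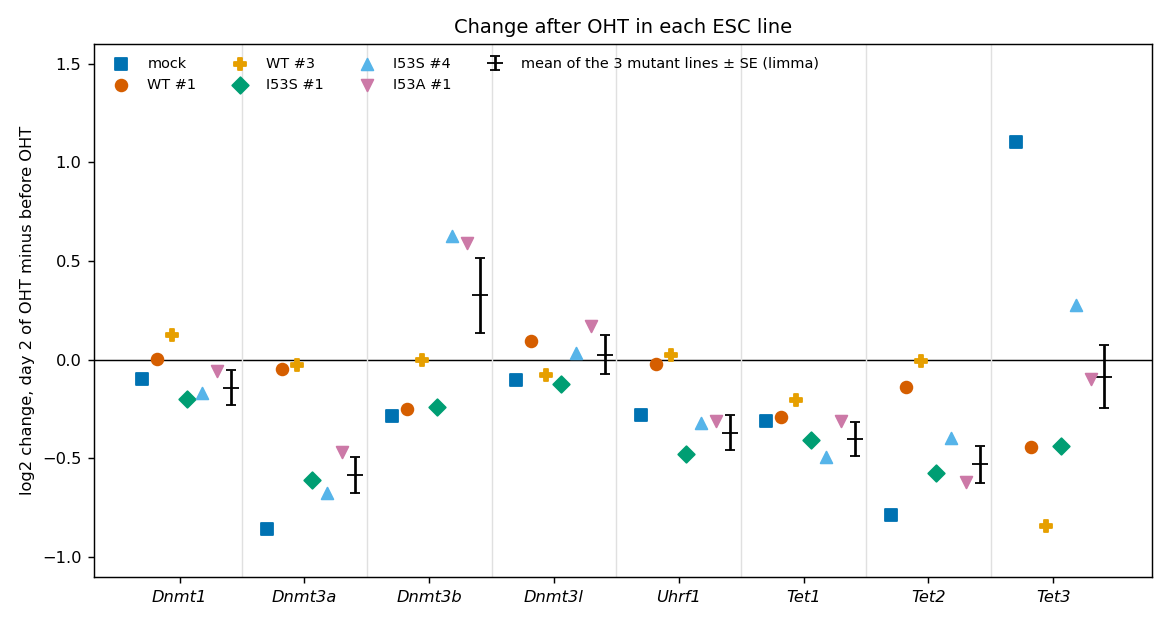
Change in log2 signal (vertical axis, day 2 of OHT minus before OHT) of the 8 genes (horizontal axis), with 1 point per ESC line. The black bar is the mean of the 3 mutant lines with its SE from limma. The mock and mutant lines lie below both WT lines at *Dnmt3a*, *Tet2* and *Uhrf1*, and by less at *Dnmt1* and *Tet1*, and the mutant lines split at *Dnmt3b*.

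Counted over the 8 genes, 5 gave a change below 0 in each of the 3 mutant lines (*Dnmt1*, *Dnmt3a*, *Uhrf1*, *Tet1* and *Tet2*), as did 23% of all genes tested. The same 5 were also below 0 in the mock line, against 17.8% of all genes. The same 5 lay below both WT lines in every mutant line, against 15% of all genes, and 1 (*Tet3*) lay above both in every mutant line, against 16.1%, which makes 6 of 8 outside the WT lines in either direction, against 31.1%. At 2 of these the margin was narrow. *Tet3*, with signals near the filter, gave -0.4382 in I53S #1 and -0.4438 in WT #1, and *Tet1* gave -0.31 in I53A #1 and -0.29 in WT #1. The median change over the 8 genes was -0.26 in the mutant fit, -0.28 for mock and -0.05 in the WT fit, beside -0.0067, 0.0048 and 0.0047 over all genes. In the test of the mutant against the WT lines 0 of the 8 genes passed, with 3 at an unadjusted p under 0.05 (*Dnmt3a*, *Tet2* and *Uhrf1*), beside 0% and 12.6% of all genes. For the mock against the WT line changes 0 passed and 3 were under that unadjusted value (*Dnmt3a*, *Tet2* and *Tet3*; 14.4% of all genes). The mock against the mutant lines gave 0 and 1 (*Tet3*; 8.05% of all genes). The mock and mutant values share the WT lines as their comparison.

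Before OHT, when every line still had endogenous Ring1B, no difference between the mutant and the WT lines passed the test for any of the 8 genes (adjusted p of 0.95 to 0.998), and 0 were under an unadjusted p of 0.05, beside 5.25% of all genes. Among *Tet1* probe sets fitted alone, this difference was -0.63 at 1419896_at and -0.60 at 1429448_s_at (limma, unadjusted p of 0.0367 and 0.0218, adjusted p of 0.843 and 0.80). It was -0.04 at 1419897_at and 0.13 at 1455425_at. The mock line had the highest *Dnmt3a*, *Dnmt3b* and *Uhrf1* signals of the 6 lines at that time. I53A #1 had the lowest *Dnmt3a*, *Dnmt3b*, *Dnmt3l* and *Tet3* signals.

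**Figure D3:**
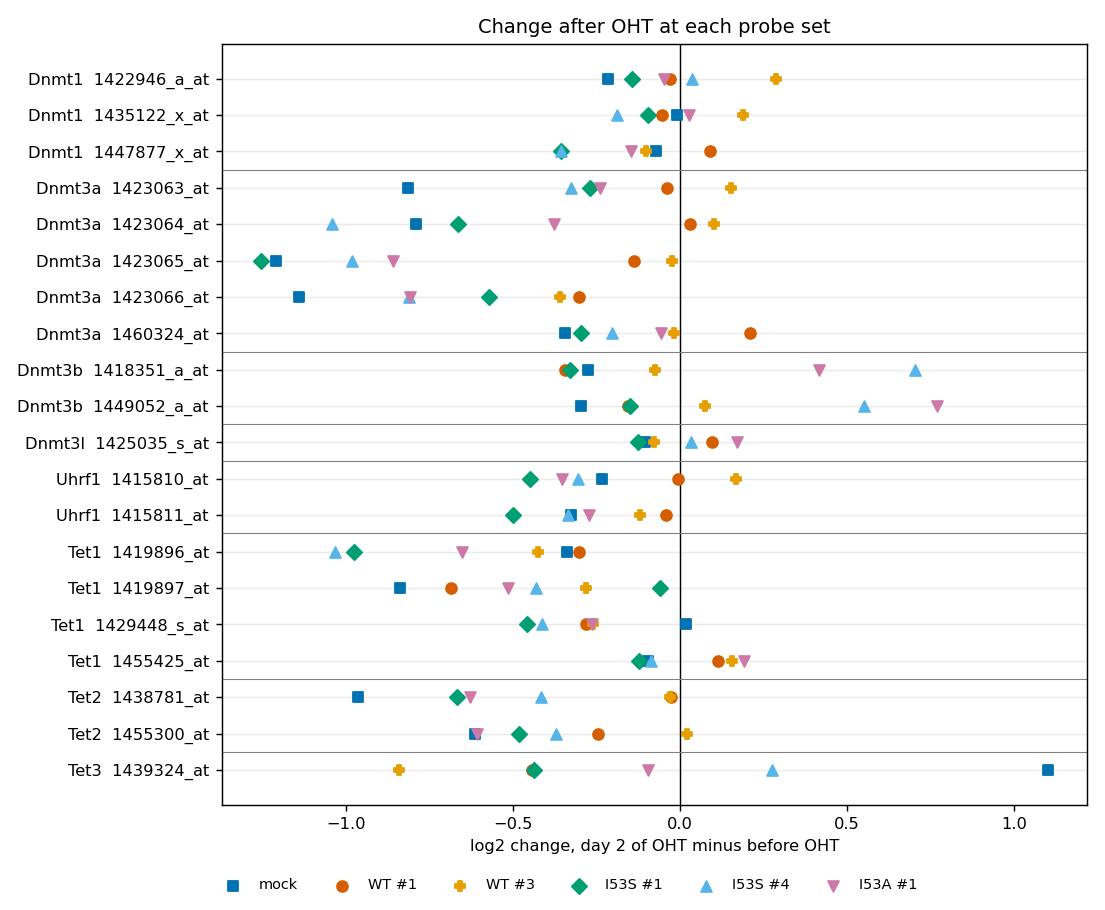
Change in log2 signal (horizontal axis, day 2 of OHT minus before OHT) at each of the 20 probe sets (vertical axis, named by gene and Affymetrix identifier), with 1 point per ESC line. The 5 *Dnmt3a* and the 4 *Tet1* probe sets differ in the size of their changes, whereas the 2 of *Uhrf1* and the 2 of *Tet2* lie close together.

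The probe sets of a gene can read different transcript forms, and each was also fitted alone over 30374 probe sets. In the mutant lines 4 of the 20 were lower and 0 higher, where 0.859% of all probe sets were called lower and 3.76% in either direction. They were 2 of *Dnmt3a*, 1 of *Tet1* and 1 of *Tet2*, and 11 of the 20 were at an unadjusted p under 0.05, beside 21.2% of all probe sets. In the WT lines 0 of the 20 passed and 4 were at that unadjusted p, beside 0% and 7.36% of all probe sets. In the mock line the counts were 0 and 8, beside 0% and 17.6%.

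The 5 probe sets of *Dnmt3a* differed in the size of their changes. At 1423065_at the mutant lines gave -1.25, -0.98 and -0.86, the mock line -1.21 and the WT lines -0.14 and -0.02. The mean of the mutant lines was -1.03 ± 0.12 (SE, n = 3 lines; adjusted p = 0.018), which is 0.489 of the signal before OHT. At 1423066_at the mutant mean was -0.73 (adjusted p = 0.0283), the mock line gave -1.14, and the WT lines gave -0.30 and -0.36. At 1423064_at it was -0.69 (adjusted p = 0.0674), at 1423063_at -0.28 (adjusted p = 0.184) and at 1460324_at -0.18 (adjusted p = 0.387). The mock line gave -0.81 at 1423063_at, beyond any of the 3 mutant lines there (-0.24 to -0.33). All 5 probe sets were below 0 in the mock line and in every mutant line.

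At *Tet1*, probe set 1419896_at gave -0.98, -1.03 and -0.65 in the mutant lines, with a mean of -0.89 ± 0.12 (SE, n = 3 lines; adjusted p = 0.0247). The mock line gave -0.34 there, between the WT lines at -0.30 and -0.43. The mutant lines were thus farther from the WT lines than the mock line was, in contrast to *Dnmt3a* and *Tet2*, but the mock and mutant changes were not shown to differ (0.55, adjusted p = 0.638). The other *Tet1* probe sets gave -0.38 (1429448_s_at, adjusted p = 0.102), -0.34 (1419897_at, adjusted p = 0.25, with signals of 4.11 to 5.24 that came near the filter) and -0.0062 (1455425_at, adjusted p = 0.983). At 1455425_at the signal stayed between 11.64 and 12.16 on all arrays, so the mean of *Tet1* took its size from the other probe sets. Already before OHT, 1419896_at read lower in the mutant lines (8.30, 8.48 and 8.07) than in the WT lines (9.23 and 8.59).

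The 2 probe sets of *Tet2* gave -0.57 (1438781_at, adjusted p = 0.0468) and -0.49 (1455300_at, adjusted p = 0.0769) in the mutant lines, and -0.96 and -0.61 in the mock line. Both *Uhrf1* probe sets gave -0.37 (adjusted p = 0.11 and 0.114). Both *Dnmt3b* probe sets showed the split between the mutant lines: 1418351_a_at gave -0.33, 0.70 and 0.42, and 1449052_a_at gave -0.15, 0.55 and 0.77. Of the 3 *Dnmt1* probe sets, 1447877_x_at gave -0.29 (adjusted p = 0.20), and the others gave -0.05 and -0.09.

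The annotated starts of these genes differ in their content of CpG, the dinucleotide on which the encoded enzymes act. RefSeq (GRCm38.p6) windows of 250 bases upstream of a start were at hand for all 8 genes, 15 windows in all, and held from 2 to 51 CpG dinucleotides, beside a median of 6 over 32851 windows. Those of the 4 genes with the most negative changes in the mutant lines (*Dnmt3a*, *Tet2*, *Tet1* and *Uhrf1*) are shown together with that of *Dnmt3b*, on which the lines split. Each is written 5′ to 3′ on the strand of the gene, with every CpG in capitals.
Dnmt3a, first start, chr12:3806730-3806979, plus strand: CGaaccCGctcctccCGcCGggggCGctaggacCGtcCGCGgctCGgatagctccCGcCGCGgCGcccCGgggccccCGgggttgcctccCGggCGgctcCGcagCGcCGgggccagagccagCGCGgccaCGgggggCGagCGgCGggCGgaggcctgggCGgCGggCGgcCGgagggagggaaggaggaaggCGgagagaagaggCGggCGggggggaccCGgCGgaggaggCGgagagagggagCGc
Dnmt3a, internal start, chr12:3891494-3891743, plus strand: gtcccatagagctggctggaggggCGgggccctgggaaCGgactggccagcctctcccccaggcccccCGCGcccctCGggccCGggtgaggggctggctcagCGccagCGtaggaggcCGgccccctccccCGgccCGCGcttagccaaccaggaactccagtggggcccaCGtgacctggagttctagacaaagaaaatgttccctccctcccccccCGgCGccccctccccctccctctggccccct
Tet2, chr3:133544391-133544640, minus strand: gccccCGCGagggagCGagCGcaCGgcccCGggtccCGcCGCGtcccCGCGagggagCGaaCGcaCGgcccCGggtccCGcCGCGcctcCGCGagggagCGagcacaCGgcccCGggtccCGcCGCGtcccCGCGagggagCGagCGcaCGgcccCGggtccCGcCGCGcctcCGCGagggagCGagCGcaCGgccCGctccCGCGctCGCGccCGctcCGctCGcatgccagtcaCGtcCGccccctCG
Tet1, chr10:62887325-62887574, minus strand: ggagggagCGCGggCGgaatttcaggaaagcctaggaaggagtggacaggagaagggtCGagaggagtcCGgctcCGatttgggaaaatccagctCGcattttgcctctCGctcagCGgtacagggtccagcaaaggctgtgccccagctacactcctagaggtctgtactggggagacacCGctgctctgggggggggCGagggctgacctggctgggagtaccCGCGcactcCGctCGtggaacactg
Uhrf1, second start, chr17:56304063-56304312, plus strand: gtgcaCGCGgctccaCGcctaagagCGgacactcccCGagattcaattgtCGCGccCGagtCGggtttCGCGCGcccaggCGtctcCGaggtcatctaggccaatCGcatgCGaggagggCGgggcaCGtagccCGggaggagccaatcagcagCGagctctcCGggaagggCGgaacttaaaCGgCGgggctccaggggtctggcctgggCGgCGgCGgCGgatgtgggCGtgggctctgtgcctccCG
Dnmt3b, chr2:153649199-153649448, plus strand: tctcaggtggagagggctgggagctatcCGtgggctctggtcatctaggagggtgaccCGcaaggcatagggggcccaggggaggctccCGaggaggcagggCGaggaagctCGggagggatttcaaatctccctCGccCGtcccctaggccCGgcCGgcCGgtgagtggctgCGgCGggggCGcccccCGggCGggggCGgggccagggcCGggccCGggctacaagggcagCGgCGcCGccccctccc

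The *Tet2* window held 51 CpG, a number reached by 0.067% of all windows, and the first *Dnmt3a* window held 38, reached by 1.88%. The internal *Dnmt3a* start lies 84764 bases downstream of the first and had 15 CpG, as did the *Tet1* window, a number reached by 27.3% of windows. *Dnmt3a* is known to make a shorter protein from an internal promoter, the main form in ESCs, but the files do not say which transcript a probe set reads. The *Uhrf1* window held 30 CpG (5.94% of windows) and that of *Dnmt3b* 21 (16.3%). The windows of the 4 genes thus ran from CpG-dense to ordinary. On either strand, the GC box GGGCGG was found in all 6 windows shown, 5 times in the first *Dnmt3a* window, against 32.7% of all windows. The E-box CACGTG was found once, at the internal *Dnmt3a* start, against 6.02% of all windows. CCAAT was found 2 times, in the *Uhrf1* window, against 33.8%, and TATAAA in none of the 6, against 12.4%. The first *Uhrf1* start, 976 bases upstream, had 10 CpG. These matches are letters in a window and were not measured as binding.

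The genes that act around these enzymes were taken from lists by function, and each count below stands against 4.91% of all genes called higher and 1.55% called lower in the mutant lines, and 1.29% called higher in the mock line. Of 28 partners and regulators of the methyltransferases that were measured, 1 was higher and 1 lower in the mutant lines, and their median was -0.15. The higher one was *Dppa3*, which protects DNA from demethylation in the zygote and binds Uhrf1. It rose by 0.99, 1.02 and 1.14 in the mutant lines (mean 1.05 ± 0.09, SE, n = 3 lines; adjusted p = 0.00663), with 1.07 in the mock line, -0.15 in WT #1 and -0.30 in WT #3. The lower one was *Zfp57*, a zinc finger protein that keeps methylation at imprinted regions. It fell by 0.61 (adjusted p = 0.0425), with 0.27 and 0.21 in the WT lines. *Dppa3* also passed the test when any 1 of the 6 lines was left out but not when the line was not a block (adjusted p = 0.0875). *Zfp57* was lost when any 1 mutant or WT line was left out (0.0714 to 0.169) and without the block (0.064).

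Of 7 readers of methylated DNA measured, 1 was lower, the zinc finger protein *Zbtb38* (-0.51, adjusted p = 0.0457), and their median was -0.02. Of 10 factors of active demethylation, 2 were lower: *Apobec1*, a cytidine deaminase (-0.63, adjusted p = 0.0177), and *Apex1*, an endonuclease of base excision repair (-0.42, adjusted p = 0.0451). Their median was -0.25 in the mutant fit, -0.22 for mock and 0.0041 in the WT fit. The WT lines gave -0.36 and -0.21 at *Apobec1*. Each of these 3 calls was lost when any 1 mutant line was left out and without the block, and *Zbtb38* and *Apex1* also when either WT line was left out. *Zbtb38* was lost with the brightest probe set (adjusted p = 0.0745) and with trended, robust priors (0.0609), and *Apex1* with centred arrays (0.0606). Of 12 genes of methyl donor supply, 1 was higher, *Bhmt2*, a homocysteine methyltransferase, by 2.47 (adjusted p = 0.00458), with 2.51 in the mock line and 0.23 and 0.17 in the WT lines, and this call held when any 1 line was left out.

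*Dnmt1* and *Uhrf1* are transcribed mainly in dividing cells, so genes of DNA replication and S phase were set beside them. None of the 24 measured passed the test in the mutant lines. Their median was -0.11 there, -0.11 for mock and -0.0048 in the WT fit, and 22 of the 24 were below 0 in the mutant fit. By line the median was -0.20 in I53S #1, where *Uhrf1* gave its lowest value (-0.47), and -0.07 and -0.05 in I53S #4 and I53A #1. *E2f1*, a transcription factor of S-phase entry, gave -0.39 (adjusted p = 0.15) and *Mcm6*, a subunit of the replicative helicase, -0.24 (adjusted p = 0.166). Their part in the *Uhrf1* values was not tested.

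Germline genes whose promoters are known to be methylated in somatic cells had the highest median of the lists in the mutant lines. Of 18 measured, 13 rose and 1 fell in these lines, and their median was 1.15, beside 1.67 in the mock line (11 higher) and 0.23 in the WT lines (0 called). *Tex101* rose by 2.12 (adjusted p = 0.0252), *Slc25a31*, an ATP carrier of sperm, by 1.84 (adjusted p = 0.00617), *Mael*, which acts in piRNA silencing, by 1.57 (adjusted p = 0.0141) and *Syce1*, a protein of the synaptonemal complex, by 1.53 (adjusted p = 0.00617). The WT lines disagreed at *Tex101*, with 1.05 in WT #1 and -0.56 in WT #3, and gave 0.25 to 0.36 at *Slc25a31*, *Mael* and *Syce1*. The lower gene was *Tex14*, which forms the bridges between germ cells (-0.71, adjusted p = 0.0369), named after its value was seen. That call was lost with centred arrays and when any 1 WT or mutant line was left out. When 1 mutant line was left out, 4 to 7 of the 18 were called higher, and without the block 9 were. DNA methylation itself was not measured, and the part of the writers and erasers in these values was not tested.

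**Figure D4:**
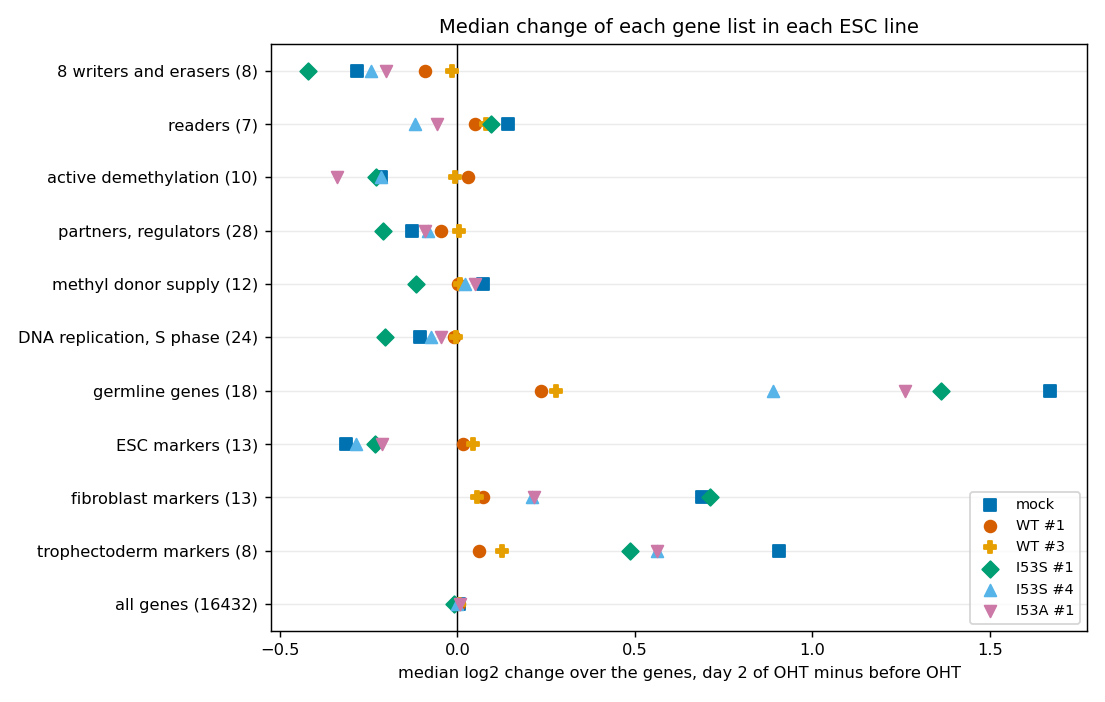
Median change in log2 signal (horizontal axis, day 2 of OHT minus before OHT) over the genes of each list drawn (vertical axis, with the number measured), with 1 point per ESC line. The primitive endoderm and primed epiblast markers are not drawn. The WT lines lie near 0 on most lists, and the 8 writers and erasers lie below 0 in the mock and mutant lines, where the germline genes lie between 0.89 and 1.67.

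Markers of other cell types gave changes of both signs. Fibroblast markers, of which 13 of 15 were measured and each was above the filter on some arrays, summed on the linear scale to 2795 before and 4508 after OHT in the mock line, 1066 to 1597 and 1144 to 1659 in the WT lines, 1746 to 2435 and 2086 to 4134 in the I53S lines, and 1374 and 1554 in I53A #1. The median change of these markers was 0.69 in the mock line, 0.71 in I53S #1 and 0.21 in both I53S #4 and I53A #1. *Dnmt3a* gave -0.86, -0.61, -0.67 and -0.47 in these lines. In WT #1 and WT #3 the marker median was 0.07 and 0.05, and *Dnmt3a* gave -0.05 and -0.03. Among the 13, *Thy1*, a surface protein of fibroblasts and other cells, rose by 0.68 and *Lox*, a collagen crosslinking enzyme, by 0.49. In WT #1 and WT #3 *Thy1* gave -0.30 and -0.05, and *Lox* 0.37 and 0.13. Trophectoderm markers, all 8 measured, had a median of 0.52 in the mutant fit, 0.91 for mock and 0.06 in the WT fit, and 4 rose (*Gata3*, *Eomes*, *Krt8* and *Krt18*, by 1.72, 0.82, 0.72 and 0.70). Their summed signal was 1736 before and 3197 after OHT in the mock line, 1433 to 1755 and 1467 to 1960 in the WT lines, 1781 to 2464 and 3039 to 3521 in the I53S lines, and 1266 and 1823 in I53A #1. *Gata3* also rose in WT #1 and WT #3, by 0.77 and 1.35, and by 1.29 in I53A #1. Its mutant minus WT value was 0.66 (adjusted p = 0.493, limma). At *Eomes*, *Krt8* and *Krt18* the WT lines gave -0.41 to 0.24. Of 10 primitive endoderm markers only *Gata6* was called in the mutant lines (0.52, beside 0.34 in WT #1 and 0.17 in WT #3). Their median was 0.32 in the mutant fit, 0.65 for mock and -0.05 in the WT fit, with 8, 9 and 3 of the 10 above 0. In the mock line *Foxa2* gave 1.88, *Gata6* 1.80 and *Sox17* 1.42, and *Lama1* gave -0.53. The summed signal of the 10 markers was 1218 before and 1651 after OHT in mock cells, 1197 to 1346 and 1186 to 1427 in the WT lines, 1562 to 1994 and 1886 to 1946 in the I53S lines, and 1331 and 1317 in I53A #1. Of 13 ESC markers *Klf4* rose (0.55) and *Nr0b1* fell by 1.32, with a list median of -0.24. In WT #1 and WT #3 *Klf4* gave 0.21 and 0.31, and *Nr0b1* 0.05 and -0.04. The list of primed epiblast markers also held *Dnmt3b*, which was left out of it here as 1 of the 8 genes. Of the 7 others *Lef1* and *Otx2* fell by 0.72 and 0.62, at a list median of -0.05 in the mutant fit and -0.44 for mock. Both genes were also lower after OHT in WT #1 and WT #3, with -0.42 and -0.64 at *Lef1* and -0.29 in each at *Otx2*. In I53S #4 *Lef1* gave -0.36. Of the 7 markers, 1 was never above the filter. The summed signal of the 7 markers was 1940 before and 1368 after OHT in mock cells, 1830 to 2287 and 1598 to 1985 in the WT lines, 1130 to 1752 and 920.3 to 1169 in the I53S lines, and 1973 and 1402 in I53A #1. When 1 mutant line was left out, *Nr0b1* was the only call among these markers common to all 3 fits, and *Klf4*, *Lox*, *Gata6*, *Krt8* and *Krt18* did not pass with the values as deposited or without the block. *Lef1* and *Otx2* did not pass without the block, *Klf4*, *Lox*, *Gata6*, *Krt8* and *Lef1* did not without either WT line, *Klf4*, *Lox* and *Krt8* did not with the brightest probe set, and *Lox* did not with the filter on the mean. The part of other cell types in the *Dnmt3a* and *Tet2* values was not tested, and in bulk RNA fewer cells with a transcript and less of it per cell cannot be told apart.

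Genes whose signal followed a writer or eraser most closely over the 12 arrays were sought among 5805 genes that ranged over at least 1 log2 unit. These correlations describe arrays that share lines and carry no test. *Dnmt3a* ran closest to *2610037D02Rik* (r = 0.963), *Foxp1*, a forkhead transcription factor (r = 0.958), and *Six4*, a homeobox gene (r = 0.954). *Foxp1* gave -0.76 in the mutant, -1.26 in the mock and -0.27 in the WT fit. *Dnmt3b* ran closest to *Sall2* (r = 0.905), *Hs6st2* and *Slc40a1*, and *Tet1* to *Olfr315* (r = 0.922), *Zbtb12* and *Spata13*. *Dnmt3l* ran closest to *Pkhd1* (r = 0.946), *Fam170a* and *Tox*, and *Tet3* to *Rnaset2a* (r = 0.912), *Lncpint* and *Fpr2*. The signals of *Dnmt1*, *Uhrf1* and *Tet2* ranged over less than 1 log2 unit and were not matched.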

How the data were processed

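Total RNA of 6 ESC lines, each before OHT and on day 2 of OHT, was read on 12 Affymetrix arrays. The deposited table holds log2 signals of 45101 probe sets that the authors made from the scans. Per the labels, the software was Affymetrix Expression Console with RMA (no version is given), whereas the study's supplementary methods name MAS5 with quantile normalization. No detection calls, slides or scan dates entered. Precision is limited by how many arrays there are.

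Groups followed the labels. After 64 control probe sets were removed, the deposited log2 values were quantile-normalized, and probe sets whose highest value exceeded 3.94 (the 30th percentile) were retained, 37446 of 45037. Probe sets were named from GEO's platform annotation, with symbols updated through RefSeq. Of them 34945 had 1 symbol, 932 several and 9160 none, and 30374 with 1 symbol passed the filter. They were averaged into 16432 genes. A linear model (limma 3.58.1, R 4.3.3) fitted the line as a block and 1 effect of OHT each for the mock, WT and mutant classes, with 3 residual and 2.79 prior degrees of freedom. The single mock line borrows its spread from the other lines. Tests were two-sided, with Benjamini-Hochberg adjustment across the genes tested and a threshold of 0.05 on the adjusted p. The levels before OHT were compared in a fit of the 6 untreated arrays. P-values rest on the spread of the WT and mutant lines, pooled and drawn toward that of all genes. They cover these lines only.

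The arrays of a line come from the same cell line, which pairs them. Deviations from the class means of the 2 arrays of a line correlated at 0.27 in the WT lines and at 0.36 to 0.43 in the mutant lines. The genes and lists were chosen with earlier results of these data known. Each writer or eraser and its probe sets was named, as were up to 4 called genes per list with the largest change (with none called, 2 with the smallest p) and the 3 best correlated genes of each writer or eraser that ranged over at least 1 log2 unit. Of the 18193 symbols, 18032 were found in RefSeq. Scripts were tested on simulated data. Other scalings, filters, probe set rules, priors and classes, a fit without the block and fits without each line were run as alternatives.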

Additional observations from a re-analysis of the deposited data

How the results depend on the processing

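With the values as deposited the median of all genes was -0.13 in the mutant fit, -0.34 in the mock line and 0.28 for mutant minus WT before OHT (-0.15 there with arrays centred on their medians), and relative to that median *Dnmt3a* gave -0.52 and *Tet2* -0.49 in the mutant lines. Against 2 genes called in the mutant lines, the deposited values, the filter on the mean and the trended, robust priors each gave 4, centred arrays and the brightest probe set 1 each, and a class of I53S alone and the fit with no replicate block 0 each. Leaving out 1 line gave 0 to 2: 2 without the mock line, 1 without either WT line and 0 without any mutant line. In the mock line, the deposited values, the filter on the mean and the trended, robust priors each gave 2 in place of 0 (*Dnmt3a* and *Tet2*), and the last also gave 2 for mock minus WT. Against 4 probe sets, the filter on the mean gave 9, the trended, robust priors 10, no replicate block 1, a class of I53S alone 0, and leaving out 1 line 0 to 4. The settings that gave 9 and 10 also raised the calls over all genes, and these counts are not set against a share of all probe sets. Calls over all genes in the mutant lines went from 1062 to 563 with no block, to 735 without either WT line and to 153, 161 and 194 without I53A #1, I53S #1 and I53S #4. With the filter on the mean they were 1777, of 11677 genes tested, and with the trended, robust priors 2219, of 16432. In the mock line 275 became 97 with no block, 922 as deposited, 883 with the filter on the mean, 1340 with the trended, robust priors, and 0 with a class of I53S alone or without any 1 WT or mutant line. Under the filter on the mean and the trended, robust priors, mutant minus WT went from 0 to 47 and 272, and mock minus WT from 0 to 17 and 453. The block, which pairs the arrays of a line, changed no other call of the 8 genes.

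The values that changed sign belonged to no call. In the mutant fit they were *Dnmt3l* as deposited (-0.11) and with I53S alone (-0.0455), which ran from -0.0455 (without I53A #1) to 0.10 when 1 line was left out, and *Tet3*, which ran from -0.27 to 0.0906 (without I53S #1). In the WT fit they were *Dnmt3a* (0.0663) and *Tet1* (0.13) with the brightest probe set, *Dnmt3l* as deposited (-7e-04) and from -0.0788 to 0.0949 without WT #1 or WT #3, and *Uhrf1* as deposited (-0.01) and from -0.0227 to 0.0237 without WT #3 or WT #1. For mutant minus WT it was *Dnmt3l* as deposited (-0.11), with I53S alone (-0.0535) and from -0.0684 to 0.11 when 1 line was left out. For mock minus WT it was *Tet1* with the filter on the mean (0.0288). For mock minus mutant they were *Dnmt1* (-0.25), *Uhrf1* (-0.19) and *Tet1* (-0.18) as deposited, *Dnmt1* with centred arrays (-0.0067) and *Tet1* with the brightest probe set (-0.0883). Before OHT they were *Dnmt1* (-0.0496), *Uhrf1* (-0.25) and *Tet2* (-0.26) with centred arrays, *Dnmt3a* (0.0146) and *Tet3* (0.0718) as deposited, and *Dnmt3a* (0.0313), *Dnmt3b* (0.0847), *Tet1* (0.13) and *Tet2* (-0.14) with the brightest probe set. *Dnmt3b* was 0.0678 there with I53S alone. When 1 line was left out, the values before OHT ran from -0.44 to 0.0678 for *Dnmt3b*, from -0.76 to 0.0396 for *Dnmt3l*, from -0.0254 to 0.14 for *Uhrf1* and from -0.10 to 0.083 for *Tet2*. The causes were not tested. Of the other values 738 kept direction and side of the threshold, 14 gained a call and 14 lost one. *Tet3* had no value under the filter on the mean, and the levels before OHT, with 1 array per line, allow no block.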
